A study of Danio rerio with 10 samples.

Results

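Prostaglandin synthases, cyclooxygenases and reductases were examined by symbol in the gene tables of zebrafish exposed to benzo[a]pyrene (BaP). The 8 members were ptgs1, ptgs2a, ptgs2b, ptges, ptgdsa, ptgdsb, PTGR1 (2 of 2) and cbr1l, out of 18910 genes listed under Ensembl annotation at 96 hours post fertilization (hpf) and 14236 at 3.3 hpf. They are not all genes of these kinds. Other listed synthases and reductases, such as ptgr1, PTGR2, cbr1, ptges3a and fam213b, are no members. Those genes belong to a separate list of eicosanoid genes, so counts over the 8 members leave them out. The group was chosen by the higher scaled CPM of ptgdsb and PTGR1 (2 of 2) in BaP larvae than in control larvae at 96 hpf, so the exposure values of all members at that age are given as a description, with no p-value, and whether a member passed the test run over all genes is stated there as a count that supports nothing. All 8 were listed at 96 hpf and 3 of them at 3.3 hpf, and under RefSeq annotation 6 were listed at 96 hpf and 3 at 3.3 hpf.

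RNA was sequenced from pooled whole animals of the AB line. The exposed groups received BaP at 50 µg/L, with 2 libraries at 96 hpf and 3 libraries at 3.3 hpf. Their control groups, labelled as 0.1 mL/L without a named liquid, had 2 libraries at 96 hpf and 3 at 3.3 hpf. The labels do not say whether the pools came from separate clutches or dishes, so p-values measure the spread between these pools alone.

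Prostaglandins are short-lived lipid signals made from arachidonic acid, which phospholipases A2 release from membranes. Cyclooxygenases (Ptgs1 and the Ptgs2 enzymes) oxidise it to prostaglandin H2, which terminal synthases turn into the single prostaglandins, Ptges into E2 and the Ptgds enzymes into D2. Reductases and dehydrogenases then inactivate or interconvert them. In zebrafish embryos, prostaglandin E2 is known to act on cell movement during gastrulation and on the formation of blood stem cells. BaP, a combustion product, is a known ligand of the aryl hydrocarbon receptor, and cyp1a, which encodes a cytochrome P450 that oxidises BaP, is a widely used marker of that binding.

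The depth behind each value was 13.2M to 17.7M (M being 1000000) reads in listed genes at 96 hpf and 17.5M to 22.2M at 3.3 hpf. Values are scaled counts per 1000000 (scaled CPM), which are not corrected for gene length, so levels are compared between libraries for a gene and not between genes. As a check of the exposure at 96 hpf, cyp1a had 779 and 854 scaled CPM in BaP larvae, against 16.0 and 15.6 in control larvae. At 3.3 hpf this marker showed no such rise. There cyp1a had 0.807, 1.66 and 1.75 scaled CPM in BaP embryos, against 1.74, 1.71 and 0.819 in control embryos, and the groups overlapped. The libraries at 96 hpf did not spread evenly. On the first principal component, which held 68.6% of the variance, BaP replicate 2 stood at 52.9 and BaP replicate 1 at 4.10, against -20.7 and -36.3 for the controls. In whole animals, more cells of a type and more RNA per cell cannot be told apart.

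At 96 hpf, a prostaglandin D synthase (ptgdsb), a prostaglandin reductase (PTGR1 (2 of 2)) and a carbonyl reductase (cbr1l) stood well above control. The cyclooxygenases, the E synthase ptges and the second D synthase ptgdsa differed by at most 0.13 on the log2 scale. The BaP and control values did not overlap for 3 of the 8 members, against 50.4% of all genes in either direction and 26.0% with BaP higher. Of the 8 members, 3 passed the limma test at an adjusted p under 0.05, the same 3 genes and all of them higher in BaP larvae, where 0.423% of all genes tested passed in either direction and 0.381% passed as higher. Because this contrast chose the group, nothing is read from that count. With the spread not allowed to follow expression, 2 genes passed in all and none of these 3 did. The median log2 difference of the 8 members was 0.11, against 0.02 over all genes.

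**Figure D1:**
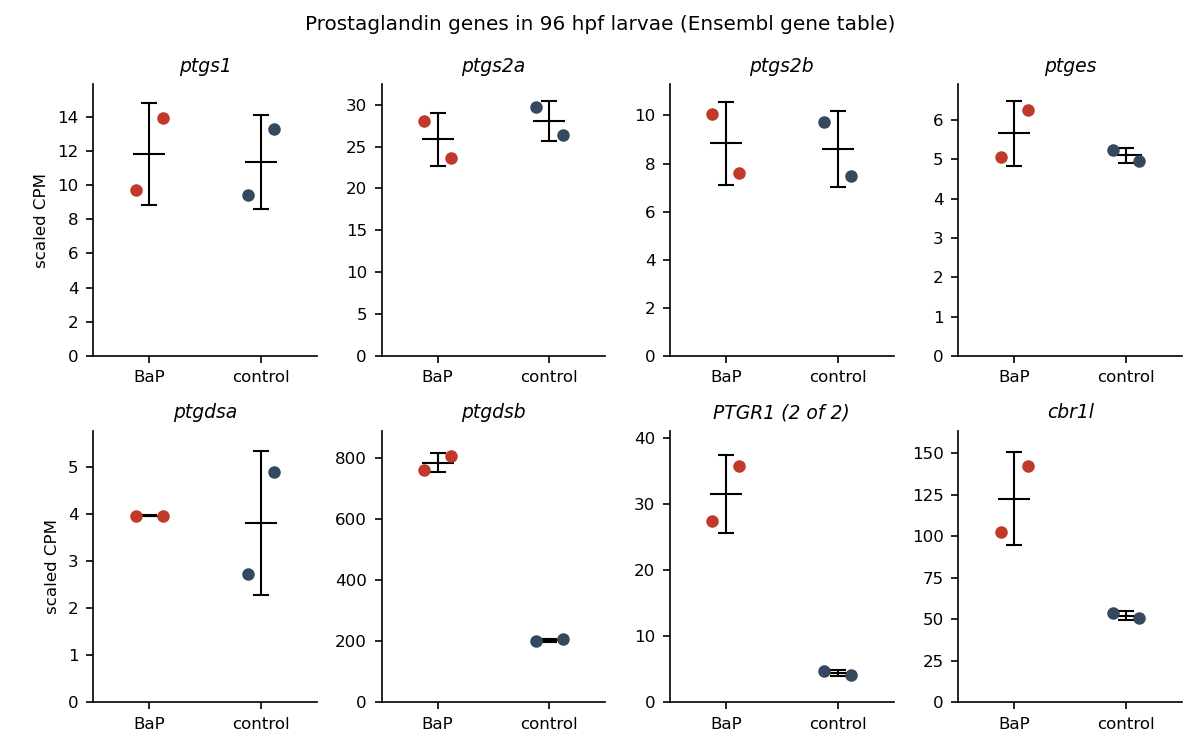
Scaled CPM of the 8 members in each library at 96 hpf, BaP in red and control in blue, with the mean as a bar and the SD as whiskers (n = 2 each) and a separate vertical axis from 0 for each gene. The BaP libraries of ptgdsb, PTGR1 (2 of 2) and cbr1l all lie above their controls, while the groups of the other 5 members overlap.

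Ptgs1 is the cyclooxygenase usually described as constitutive. It had 9.68 and 13.9 scaled CPM in BaP larvae, against 9.42 and 13.3 in control larvae. The groups overlapped, and within each group the second replicate was the higher by more than the groups differed. The log2 difference was 0.05 ± 0.25 (SE, n = 2 each), with a 95% interval of -0.52 to 0.63. The gene ptgs1 was the only member with more than 1 transcript in the Ensembl transcript table at 96 hpf. Transcript ptgs1-201 held 40.6% and 41.2% of the gene in BaP larvae, against 69.7% and 34.1% in control larvae. The share differed more between the control pools than between the groups. The log2 difference was -0.17 ± 0.33 for ptgs1-201 and 0.41 ± 0.52 for ptgs1-001 (SE), both less certain than that of the gene.

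Ptgs2a and ptgs2b are the zebrafish copies of the inducible cyclooxygenase. The value of ptgs2a was 28.1 and 23.6 scaled CPM in BaP larvae, against 29.8 and 26.4 in control larvae. The log2 difference was -0.12 ± 0.16 (SE, 95% interval -0.49 to 0.25), and the groups overlapped. For ptgs2b the values were 10.1 and 7.63 scaled CPM in BaP larvae, against 9.72 and 7.50 in control larvae. Its log2 difference was 0.04 ± 0.24 (SE, 95% interval -0.51 to 0.58). The gene ptgs2a made up 73.6% and 75.6% of the pair's CPM in BaP larvae, against 75.4% and 77.9% in control larvae, without a correction for length. In this fit of 2 libraries a group, the 95% intervals of all 3 cyclooxygenase genes stayed below 1 on the log2 scale, given as a description.

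The level of ptgs2b depended on the annotation. Its mean under RefSeq was 2.01 times that under Ensembl, above 96.8% of 10072 genes listed in both, whose median ratio was 1.18. The other members listed in both had ratios of 1.04 to 1.17. Under RefSeq, ptgs2b had 19.7 and 17.8 scaled CPM in BaP larvae, against 19.1 and 13.7 in control larvae, and the groups overlapped there too.

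Among the terminal synthases, ptges encodes the membrane-bound prostaglandin E synthase. It had 5.07 and 6.25 scaled CPM in BaP larvae, against 5.24 and 4.96 in control larvae, a log2 difference of 0.13 ± 0.24 (SE, 95% interval -0.42 to 0.68). One BaP pool lay between the controls and the other above both. The gene ptgdsa, a prostaglandin D synthase of the lipocalin type, had 3.98 and 3.96 scaled CPM in BaP larvae, against 2.74 and 4.90 in control larvae. Both BaP pools lay between the controls, and the log2 difference was 0.10 ± 0.31 (SE).

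Ptgdsb is the other lipocalin-type prostaglandin D synthase, a family whose mammalian member both makes prostaglandin D2 and carries small lipophilic molecules. It had 762 and 806 scaled CPM in BaP larvae, against 199.8 and 207 in control larvae. The lowest BaP pool was far above the highest control, and within each group the pools differed by little. The means were 784 ± 31.0 in BaP larvae and 203 ± 5.17 in control larvae (SD, n = 2 each), a ratio of 3.85 and a log2 difference of 1.94 ± 0.12 (SE). This was rank 28 of 18910 from the highest log2 difference, and without BaP replicate 2 the log2 difference was 1.90. The RefSeq table gave 888 and 918 scaled CPM in BaP larvae, against 237 and 247 in control larvae. There ptgdsb was the single member that passed, of 6 listed, where 0.540% of 12415 genes did, and 0.499% as higher. PTGR1 (2 of 2) and cbr1l were not listed under RefSeq, so they have no value there.

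The gene next to ptgdsb had a similar difference. In the gene order of a current RefSeq zebrafish assembly (GRCz12tu, used for names and order only), ptgdsb is ptgdsb.1 and its direct neighbour is ptgdsb.2, listed in the tables under the older symbol zgc:153154. This gene is no member and was looked up after its values were seen. It had 125 and 155 scaled CPM in BaP larvae, against 36.6 and 43.7 in control larvae, a log2 difference of 1.79 ± 0.16 (SE, rank 38). The gene ptgdsb made up 85.9% and 83.8% of the pair's CPM in BaP larvae, against 84.5% and 82.6% in control larvae. The share of the pair was thus about the same in all 4 libraries. How the authors assigned reads that fit both genes is not given in the sources used here, so part of either value could come from the other gene.

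The genes named here beyond this pair had smaller differences. A further listed gene, ARMC3, lies beyond msrb2 and its value is not given in the text. On the side of zgc:153154, zfx, a zinc finger gene, had a log2 difference of -0.20 ± 0.14 (SE) and eif2s3, a translation initiation factor gene, had 0.13 ± 0.13 (SE). On the side of ptgdsb, c8g, which encodes a lipocalin of the complement system, had 9.45 and 17.8 scaled CPM in BaP larvae, against 8.05 and 5.54 in control larvae. Its log2 difference of 0.91 ± 0.32 (SE) did not pass the test (limma adjusted p = 0.258). The methionine sulfoxide reductase gene msrb2 had a log2 difference of 0.36 ± 0.27 (SE).

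PTGR1 (2 of 2) carries the human symbol of prostaglandin reductase 1, which in mammals reduces 15-keto prostaglandins and inactivates leukotriene B4. It had 27.4 and 35.7 scaled CPM in BaP larvae, against 4.72 and 4.12 in control larvae. The groups were far apart, and the lowest library held about 62.1 reads. The means were 31.6 ± 5.89 in BaP larvae and 4.42 ± 0.425 in control larvae (SD, n = 2 each), a ratio of 7.14 and a log2 difference of 2.70 ± 0.21 (SE). This was rank 9 of 18910 and the highest of the 8 members, and without BaP replicate 2 the log2 difference was 2.51.

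A gene listed as ptgr1, from the same family, had a smaller difference. It had 49.1 and 67.2 scaled CPM in BaP larvae, against 38.4 and 52.4 in control larvae, and the groups overlapped (log2 difference 0.35 ± 0.20 SE, limma adjusted p = 0.415). PTGR1 (2 of 2) accounted for 35.8% and 34.7% of the CPM of the pair in BaP larvae, against 10.9% and 7.28% in control larvae. The current RefSeq order has ptgr1.1, whose older symbol is ptgr1, beside ptgr1.2. Whether PTGR1 (2 of 2) is ptgr1.2 could not be settled, because the tables carry symbols and no gene identifiers. On the far side of ptgr1.2 lies txnb, listed as txn, a thioredoxin gene, with 58.1 and 69.7 scaled CPM in BaP larvae, against 33.1 and 26.0 in control larvae. Its ratio of means was 2.16, the highest among the listed neighbours of ptgr1 (SVEP1, txn and haus3), and no test result is given for it. Beyond txn, SVEP1 was lower, with 11.8 and 13.6 scaled CPM in BaP larvae, against 16.9 and 16.8 in control larvae. On the other side of ptgr1, haus3 had 6.41 and 7.21 in BaP larvae, against 6.23 and 6.40 in control larvae.

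**Figure D2:**
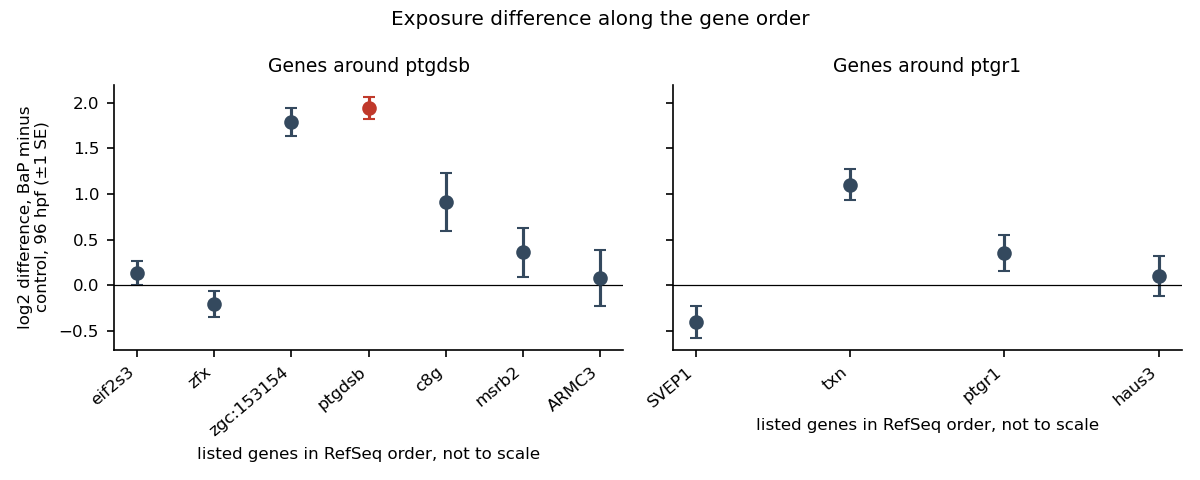
Log2 difference of BaP minus control larvae at 96 hpf with 1 SE for listed genes around ptgdsb (left, ptgdsb in red) and around ptgr1 (right), in the order of a current RefSeq assembly and not to scale. The pair zgc:153154 and ptgdsb stands at 1.79 and 1.94, c8g at 0.91 and zfx at -0.20, and around ptgr1 (0.35) the highest point is txn.

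Cbr1l is named for its likeness to carbonyl reductase 1, which in mammals reduces many carbonyl compounds and can turn prostaglandin E2 into prostaglandin F2 alpha. It had 103 and 142 scaled CPM in BaP larvae, against 54.0 and 50.5 in control larvae. The groups did not overlap, and the BaP pools differed from each other more than the controls did. The ratio of means was 2.34 and the log2 difference 1.20 ± 0.17 (SE), rank 147 of 18910. Without BaP replicate 2 the log2 difference was 0.97. Without control replicate 2 it was 1.15 and no longer passed, and it did not pass on CPM as deposited (1.11) either.

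The gene cbr1 had 26.5 and 28.8 scaled CPM in BaP larvae, against 25.2 and 23.0 in control larvae (log2 difference 0.19 ± 0.15 SE, limma adjusted p = 0.543). The gene cbr1l made up 79.5% and 83.2% of the CPM of the pair with cbr1 in BaP larvae, against 68.2% and 68.7% in control larvae. The listed neighbours of cbr1l in the RefSeq order had log2 differences of -0.18 ± 0.16 (tgfb1b, a growth factor gene), 0.14 ± 0.24 (b9d2, a cilium gene) and -0.41 ± 0.33 (neu3.1, a sialidase gene; all SE).

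**Figure D3:**
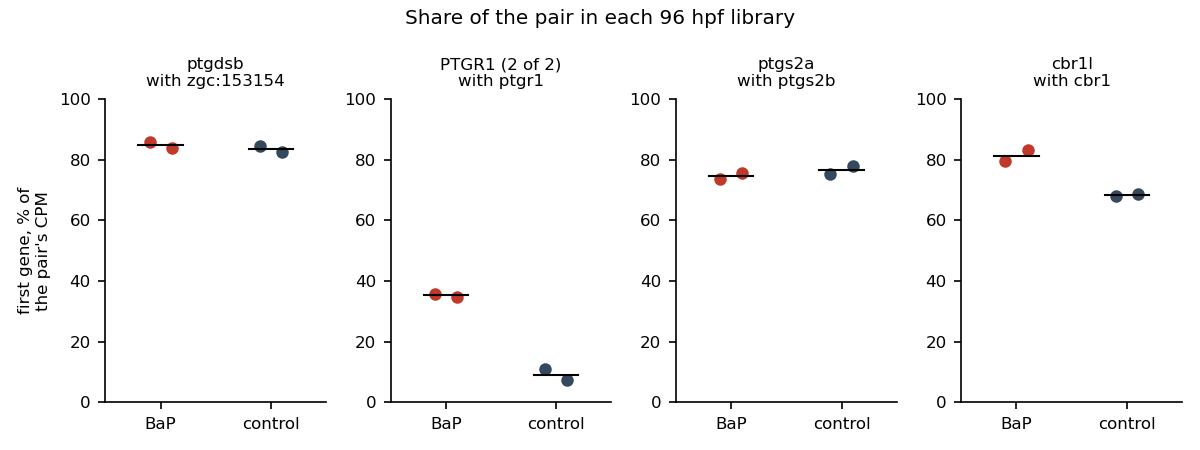
Share of the first gene in the summed CPM of a pair of related genes in each 96 hpf library, BaP in red and control in blue, with the mean as a bar (n = 2 each). The share of ptgdsb lies between 82.6% and 85.9% in all libraries and that of ptgs2a between 73.6% and 77.9%, while PTGR1 (2 of 2) and cbr1l take a larger share of their pairs in BaP larvae.

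Markers of some organs were also higher on average in BaP larvae. Over all genes, 52.2% had a log2 difference above 0 and 26.0% had all BaP pools above the controls. The exocrine pancreas list summed to 2078 and 2599 scaled CPM in BaP larvae, against 1219 and 1424 in control larvae. Its log2 differences were above 0 for 9 of 9 listed markers, with a median of 0.82, and all BaP pools lay above the controls for 6. Of the 9 markers 1, the trypsin gene zgc:66382, passed the test (limma adjusted p = 0.0374), where 0.381% of all genes passed as higher. In this list ctrb1, a chymotrypsinogen gene, had 447 and 519 scaled CPM in BaP larvae, against 237 and 282 in control larvae, and the trypsin gene si:ch73-103b2.3 had 604 and 826 in BaP larvae, against 380 and 403 in control larvae. The liver list summed to 1747 and 2762 scaled CPM in BaP larvae, against 1761 and 1448 in control larvae, so its sums overlapped. In this list 9 of 9 log2 differences were above 0, with a median of 0.40, and all BaP pools lay above the controls for 4 markers. Its most abundant genes were tfa, which encodes transferrin, with 730 and 961 in BaP larvae against 676 and 593 in control larvae, and fga, a fibrinogen gene, with 212 and 386 in BaP larvae against 213 and 231 in control larvae. The highest log2 difference of the list, 1.67, was that of fabp10a, a liver fatty acid binding protein gene, with 159 and 248 in BaP larvae against 79.8 and 48.2 in control larvae, named here after its values were seen.

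The intestine list summed to 1272 and 1786 scaled CPM in BaP larvae, against 1275 and 1031 in control larvae, led by the lipid carrier genes apoa4 (737 and 1077 in BaP larvae, 793 and 564 in control larvae) and fabp2 (286 and 369 in BaP larvae, 275 and 202 in control larvae). The leukocyte list spanned 103.9 to 165.3 in BaP larvae and 110.0 to 131.4 in control larvae, and its most abundant genes lyz and lcp1 had overlapping groups. Skin markers, led by the keratin genes krt4 and krt5, spanned 15390 to 17030 in BaP larvae and 13700 to 20200 in control larvae. The early zygotic list, which at this age is mostly apoeb, an apolipoprotein gene, summed to 1029 and 1371 in BaP larvae, against 890.5 and 901 in control larvae. Log2 differences were above 0 for 6 of 6 intestine markers (median 0.39), 7 of 12 leukocyte, 5 of 8 skin and 4 of 5 early zygotic markers. Over all genes this was 52.2%. All BaP pools lay above the controls for 2 intestine, 2 leukocyte, 4 skin and 3 early zygotic markers, against 26.0% of all genes. The parts of liver, pancreas or intestine in the levels of ptgdsb, PTGR1 (2 of 2) and cbr1l were not tested.

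Other genes of the eicosanoid pathway were taken from a list by role that holds neither the members nor zgc:153154. Of its 26 genes listed at 96 hpf, 0 passed limma's test, where 0.423% of all genes did. The neighbour zgc:153154, outside the list, did pass, but it was looked up after its values were seen. Nothing is read from that pass. At an unadjusted limma p under 0.05 there were 6 of the 26 (23.1%), all higher in BaP larvae, against 15.8% of all genes in either direction. Of all 18910 genes, 1401 were higher and 1579 lower at that p. The median log2 difference of the 26 was 0.18, against 0.02 over all genes. Of the 26, 17 (65.4%) lay above control, against 52.2% of all genes.

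Among genes that release arachidonate, pla2g1b, the pancreatic secretory phospholipase A2, had 4.60 and 3.33 scaled CPM in BaP larvae, against 1.06 and 1.69 in control larvae (log2 difference 1.26 ± 0.32 SE, limma adjusted p = 0.179). The secretory phospholipase gene pla2g12a had a log2 difference of 0.32 ± 0.20 (SE, limma adjusted p = 0.442). The 8 genes of this role spanned -0.38 to 1.26.

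Of 8 other terminal synthases, 7 lay above control, with a median log2 difference of 0.37. The smallest adjusted p among these 26 genes belonged to fam213b, a prostaglandin F synthase, with 48.8 and 58.8 scaled CPM in BaP larvae, against 21.3 and 29.3 in control larvae (log2 difference 1.09 ± 0.19 SE, limma adjusted p = 0.0675). The gene ptges3a, a copy of the cytosolic prostaglandin E synthase that also serves as a co-chaperone, had 103 and 106 scaled CPM in BaP larvae, against 80.7 and 85.6 in control larvae (limma adjusted p = 0.272).

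The 6 listed genes of inactivation and transport, ptgr1 and cbr1 among them, had log2 differences of -0.04 to 0.35. Both receptors for prostaglandin E2 listed under Ensembl were lower in every BaP pool than in the controls without passing the test. The groups of 50.4% of all genes did not overlap in either direction. A further such receptor, ptger2b, was listed under RefSeq alone and its values are not given here. The gene ptger2a had 4.43 and 3.24 scaled CPM in BaP larvae, against 6.15 and 5.59 in control larvae (log2 difference -0.57 ± 0.26 SE, limma adjusted p = 0.328), and ptger4b had 1.35 and 1.38 in BaP larvae, against 1.44 and 1.61 in control larvae. In the leukotriene branch, lta4h, which makes leukotriene B4, had a log2 difference of 0.32 ± 0.17 (SE) and the lipoxygenase gene alox12 had -0.21 ± 0.19 (SE).

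**Figure D4:**
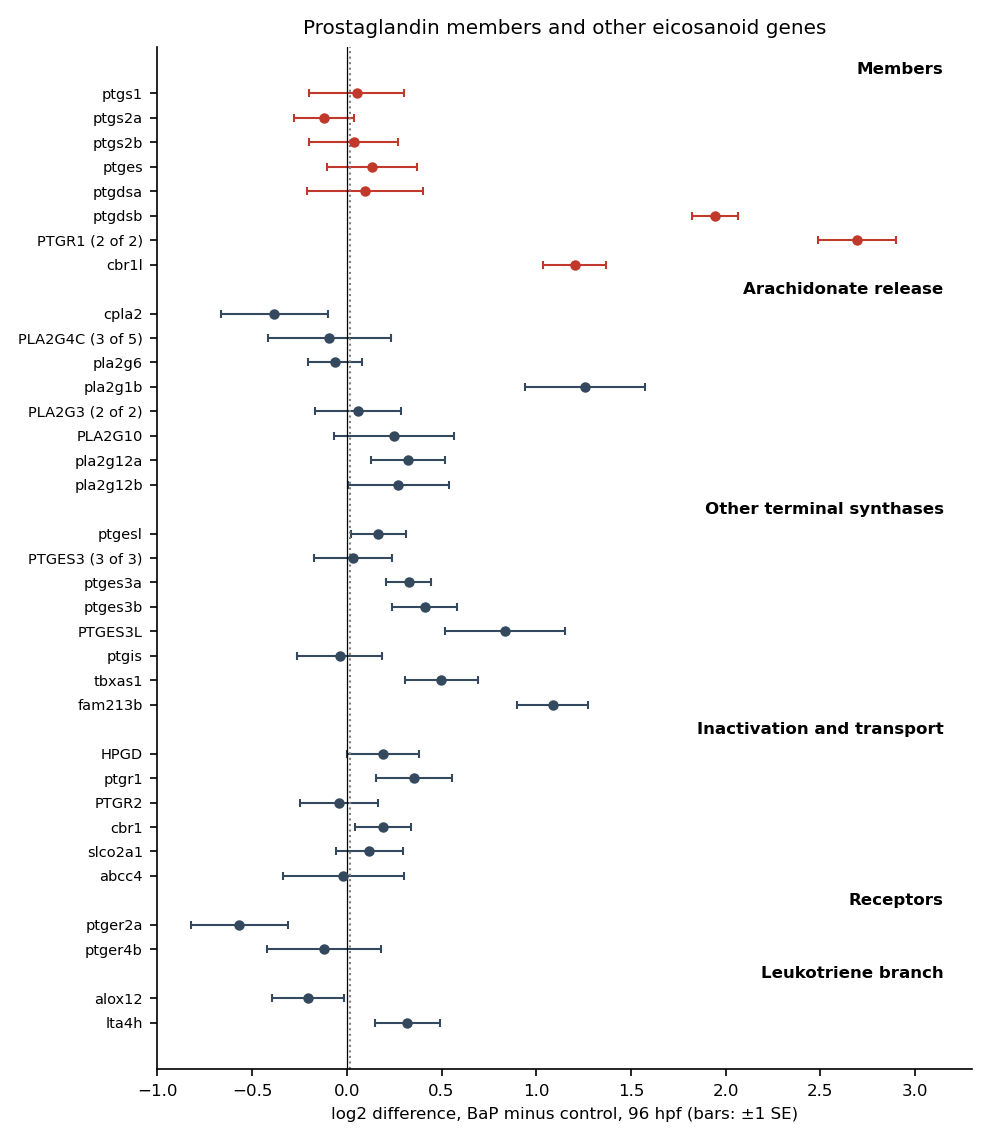
Log2 difference of BaP minus control larvae at 96 hpf with 1 SE (n = 2 libraries each) for the 8 members (red) and the 26 other listed eicosanoid genes by role (blue), with the median of all genes as a dotted line. Among the members, PTGR1 (2 of 2) at 2.70, ptgdsb at 1.94 and cbr1l at 1.20 stand apart from the other 5, and among the other genes pla2g1b (1.26) and fam213b (1.09) have the highest values.

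Genes with the profiles most like those of ptgdsb, PTGR1 (2 of 2) and ptgdsa were named by Euclidean distance over the 4 larval libraries. Each profile was log2 values minus the control mean. The candidates were 14980 genes, without those whose symbol is a clone name, so genes left out can lie nearer. The distances describe 4 libraries that all the genes share. Nearest to PTGR1 (2 of 2) was cyp1c1, a cytochrome P450 gene (distance 0.544), with 180 and 228 scaled CPM in BaP larvae, against 23.3 and 24.4 in control larvae. After it came cyp2x7, another cytochrome P450 gene (0.771), and rpe65a, a retinoid isomerase gene (0.772). Nearest to ptgdsb was sult6b1, a sulfotransferase gene (distance 0.129), with 217 and 239 scaled CPM in BaP larvae, against 62.7 and 61.3 in control larvae. The cytochrome P450 gene cyp1c2 (0.237) and trim108 (0.287) followed. The neighbour zgc:153154 stood at 0.308, number 5 in order of distance among all 18909 other genes. The gene ptgdsa lay closest to grtp1a (0.0652), msmo1, a sterol oxidase gene (0.0746), and CHCHD5 (0.0766). The controls of these genes also differed from each other more than their BaP pools did, which follows from the choice by distance.

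At 3.3 hpf, when the embryo still relies largely on maternal RNA, 3 members were listed under Ensembl and none passed the test. The choice of members did not use this age. Over all genes limma called 0 of 14236 (0%), the smallest adjusted p was 0.907, and 700 genes had an unadjusted p under 0.05. The groups did not overlap for 11.5% of all genes, and for 6.24% with BaP higher. Neither gene table of this age listed ptgs2a, ptges, ptgdsa or PTGR1 (2 of 2).

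The gene ptgs1 had 2.92, 2.80 and 1.70 scaled CPM in BaP embryos, against 2.81, 1.43 and 2.78 in control embryos. The groups overlapped (log2 difference 0.08 ± 0.36 SE, limma adjusted p = 0.978). The gene ptgs2b was listed under RefSeq alone, with 0.667, 1.40 and 1.45 scaled CPM in BaP embryos, against 1.04, 1.09 and 1.24 in control embryos, taken from the transcript table because its columns carry replicate numbers. Its log2 difference in the RefSeq gene table was 0.01 ± 0.34 (SE). Over all genes of the RefSeq gene table limma called 0 of 9548 (0%), with 507 at an unadjusted p under 0.05.

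The gene ptgdsb had 1.76, 1.36 and 3.81 scaled CPM in BaP embryos, against 0.586, 0.550 and 0.899 in control embryos. These values stand for an estimated 28.6 to 85.1 reads in BaP embryos and at most 16.5 reads in control embryos. The groups did not overlap, but that follows from how the gene came to be listed. The deposited table keeps genes above 1 CPM in at least 3 libraries. With 0 control libraries above that level, ptgdsb was listed only through its 3 BaP libraries. The log2 difference was 1.17 ± 0.40 (SE), given as a description for that reason. It was 1.52 with a pseudocount of 0.1 and 0.65 with a pseudocount of 2. Under RefSeq, 3 BaP libraries and 1 control library lay above 1 CPM. The log2 difference there was 1.26 ± 0.42 (SE), also given as a description. The gene zgc:153154 had 1.41, 1.06 and 1.65 scaled CPM in BaP embryos, against 0.931, 1.32 and 1.17 in control embryos, and its groups overlapped. The gene ptgdsb made up 55.6%, 56.1% and 69.7% of the pair's CPM in BaP embryos, against 38.6%, 29.4% and 43.4% in control embryos. These shares rest on the same selected values of ptgdsb, so nothing is read from their difference.

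The gene cbr1l was lower on average in BaP embryos without passing the test. It had 23.4, 18.9 and 25.6 scaled CPM in BaP embryos, against 31.0, 23.5 and 32.1 in control embryos. The groups overlapped through 1 control, and the log2 difference of -0.34 ± 0.19 (SE, 95% interval -0.80 to 0.11) did not pass (limma adjusted p = 0.907). The gene cbr1l made up 21.6%, 18.6% and 28.9% of the pair with cbr1 in BaP embryos, against 25.4%, 25.7% and 29.2% in control embryos.

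**Figure D5:**
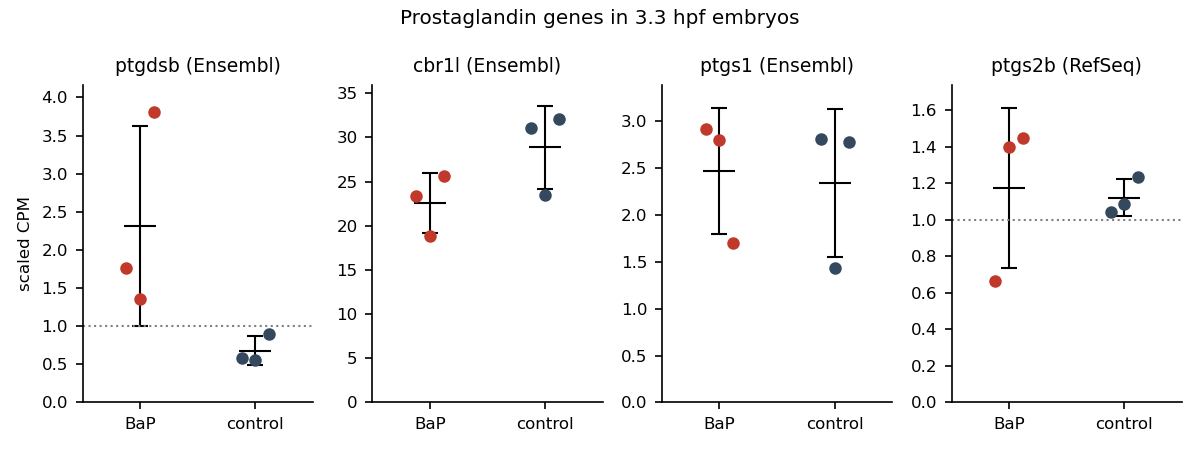
Scaled CPM of the 4 members listed at 3.3 hpf in each library, BaP in red and control in blue, with the mean as a bar and the SD as whiskers (n = 3 each), and a dotted line at 1 CPM in the panels of ptgdsb and ptgs2b. For ptgdsb the BaP libraries alone lie above 1 CPM, and for cbr1l, ptgs1 and ptgs2b the groups overlap.

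The pools at 3.3 hpf differed widely in early zygotic markers. The early zygotic list summed to 15.8, 751 and 101 scaled CPM in BaP replicates 1, 2 and 3, against 390, 4.68 and 80.5 in control replicates 1, 2 and 3. The krt8 gene likewise stood at 90.3 in BaP replicate 2 and between 1.92 and 5.88 in the other embryo libraries. It entered the skin list as an older or newer symbol of krt4, a match by symbol alone. The part of these differences in the member values was not tested. Without BaP replicate 2 the log2 difference of ptgdsb was 1.42 and that of cbr1l -0.22. Without BaP replicate 3 that of ptgdsb was 0.81. No liver or exocrine pancreas marker was listed at this age. The leukocyte list had 2 listed genes (coro1a and mmp9), the skin list krt8 and tp63, and the intestine list vil1l.

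Of the other eicosanoid genes, 14 were listed at 3.3 hpf, and 0 passed limma's test or had an unadjusted p under 0.05, against 4.92% of all genes at that unadjusted p. Their median log2 difference was -0.03, with 5 of 14 (35.7%) above control, against 51.0% of all genes. The cytosolic phospholipase A2 gene cpla2 had 8.52, 7.25 and 15.5 scaled CPM in BaP embryos, against 5.62, 5.89 and 7.42 in control embryos (log2 difference 0.62 ± 0.32 SE, limma adjusted p = 0.907). The gene fam213b had 37.2, 33.0 and 49.1 in BaP embryos, against 68.5, 62.5 and 29.0 in control embryos. The remaining genes with the smallest p of their roles were pla2g12a (0.20), abcc4, a transporter gene (0.33), PTGR2 (-0.25), lta4h (-0.21) and ptges3b (-0.11), all log2 differences of overlapping groups.

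The difference between the ages in the exposure effect is given as a size, because its 96 hpf side chose the members. In 1 fit of all 10 libraries over 12800 genes listed at both ages, the log2 effect at 96 hpf minus that at 3.3 hpf was 1.57 ± 0.28 for cbr1l, 0.82 ± 0.44 for ptgdsb and -0.01 ± 0.50 for ptgs1 (SE). For ptgdsb the 3.3 hpf side was selected too, because under Ensembl the gene was listed at that age only through its 3 BaP libraries. Its size here and its not passing carry that selection. The value of ptgdsb was 0.45 with a pseudocount of 0.1 and 1.34 with a pseudocount of 2. No member passed in that fit, where 0.0234% of genes did, cyp1a among them with 5.69 ± 0.44 (SE). Without BaP replicate 1 of 96 hpf, the value of cbr1l was 1.81. Control levels of ptgdsb were 203 scaled CPM at 96 hpf and 0.678 at 3.3 hpf, and those of cbr1l were 52.2 at 96 hpf and 28.9 at 3.3 hpf. The tables of the ages were scaled separately, so these levels were not tested against each other.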

How the data were processed

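The RNA of pooled whole zebrafish was read in 10 libraries, grouped by the age and treatment in the labels. The submitters' processing notes list TopHat, Partek, edgeR and genome build Zv9, and give neither a version nor a role for any of them. The 8 deposited tables hold CPM, a unit read from the values (all columns total 1000000), and the authors kept genes with over 1 CPM in 3 or more libraries at 3.3 hpf and in 2 or more at 96 hpf. At low values 61.0% to 74.9% were whole reads (tolerance 0.05 reads), so no count test was run, and depths and reads per gene are estimates from these steps.

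CPM were scaled by TMM factors (unweighted, 30% of log ratios and 5% of average levels trimmed) and tested as log2(scaled CPM + 0.5) with limma 3.58.1 in R 4.3.3 (trended eBayes, two-sided, Benjamini-Hochberg over all genes of the table, threshold 0.05), on Ensembl gene tables unless stated. Fold differences on this scale understate the change of low genes. The code was tested on simulated data. The members, the eicosanoid list and the tissue and early zygotic lists were chosen with earlier results of these data known. Named were all members, from the eicosanoid list the 2 smallest p in each role, from each marker list the 2 most abundant genes, and the 3 nearest profiles of PTGR1 (2 of 2), ptgdsb and ptgdsa with an average log2 value above 1; neighbours were added afterwards. Alternatives changed the pseudocount (0.1 or 2), scaling, filter (3 CPM), spread model, table, block and libraries.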

Additional observations from a re-analysis of the deposited data

How the results depend on the processing

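With 2 libraries a group at 96 hpf, the count of genes passing was not stable. It was 80 as reported, 38 on CPM as deposited, 2 with the spread not following expression, 155 with the replicate number as a block, 1 in the Ensembl transcript table, 52 in the RefSeq transcript table (added after the data were seen), and 32 to 3223 with 1 library left out (leaving out control replicate 2 gave 32, control replicate 1 gave 129, BaP replicate 2 gave 247, BaP replicate 1 gave 3223). At 3.3 hpf it was 0, and 0 to 1 with 1 library left out. For the difference between ages it was 3, 1 with the spread not following expression, 0 with the replicate block, and 0 to 151 with 1 library left out.

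Deviations of same-numbered libraries from their group means correlated at -0.441, -0.431 and -0.0108 at 3.3 hpf and at -0.257 at 96 hpf. With 2 libraries a group the deviations mirror each other, so at 96 hpf the crossed pairs stood at 0.257. These correlations cannot decide whether same-numbered pools shared a clutch or dish. A block with the pairing crossed, added after the data were seen, gave 2179 calls at 96 hpf.

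Of 206 alternatives for 14 member values, 177 kept the direction and the side of the threshold. The direction turned in 20, a call was lost in 8 and gained in 1. A value that did not pass counted as kept if it held its sign and again did not pass. At 3.3 hpf, where the fits called 0 to 1 genes, there was no call to lose. The 177 is therefore no measure of how firm the values are. PTGR1 (2 of 2) and cbr1l, not listed under RefSeq, were fitted in Ensembl tables alone. Ptgdsb ranged from 1.85 to 1.97, PTGR1 (2 of 2) from 2.38 to 2.87 and cbr1l from 0.97 to 1.42 (log2, 96 hpf). These 3 lost their calls with the spread not following expression and in the Ensembl transcript table, where 2 genes and 1 transcript passed in all, and cbr1l also on CPM as deposited and without control replicate 2. The direction of the small 96 hpf differences turned: ptgs1 was -0.037 and ptgs2b -0.051 on CPM as deposited, and in the Ensembl transcript table ptgs1-201 was -0.17 and ptgdsa -0.17. The single listed ptgdsa transcript had 2.55 and 3.24 scaled CPM in BaP larvae, against 2.47 and 4.36 in control larvae. In each library this was below the value of the gene, so the 2 differences are not of the same quantity. With 1 library left out, ptgs1 ranged from -0.20 to 0.29, ptgs2a from -0.25 to 0.0025, ptgs2b from -0.17 to 0.23, ptges from -0.0081 to 0.26 and ptgdsa from -0.27 to 0.45. At 3.3 hpf ptgs1 ranged from -0.16 to 0.28 in this way. Between ages, ptgs1 was 0.016 with a pseudocount of 2 and ranged from -0.28 to 0.26 with 1 library left out. The value of cbr1l between ages ranged from 1.32 to 1.81 in this way, the highest without BaP replicate 1 of 96 hpf. Of the 15 alternatives for this value, 14 did not pass, like the main fit, and 1 did. The causes were not tested.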
